A study of Rattus norvegicus with 14 samples.

Results

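The genes examined were 3 genes of hyperpolarization-activated, cyclic nucleotide-gated (HCN) pacemaker channels, Hcn2, Hcn3 and Hcn4, and Pex5l, which encodes the channels' auxiliary subunit known as TRIP8b. They were taken by symbol from a list of 4 members, all of which were found among the 22601 genes listed in each of 14 hippocampal RNA-seq libraries. All 4 passed the filter on low values described below.

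HCN channels open when the membrane is hyperpolarized and carry a mixed sodium and potassium current, called Ih, that drives the membrane back toward threshold. Cyclic AMP binds a cytoplasmic domain of the channel and eases its opening, an effect that is strong in HCN2 and HCN4 and weak in HCN3. TRIP8b binds the channel's carboxyl end, controls its trafficking to the surface and to dendrites, and reduces its response to cyclic AMP. In the hippocampus Ih sets the resting potential and input resistance of pyramidal cells and interneurons, and changes of this current have been described in several models of epilepsy.

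All libraries came from wild-type Wistar rats of the same weight range, and no group carried an allele that another lacked. The control group (n = 4) was given vehicle. The PTZ group (n = 5) was given vehicle and pentylenetetrazole, an antagonist of GABA-A receptors that induces seizures. The PTZ+Q808 group (n = 5) was given pentylenetetrazole and Q808, a compound named in the labels by its code only. The sources used here did not give dose, timing, age or sex. No group received Q808 without PTZ, so the effects of the compound itself and of its action on the seizures cannot be told apart. The design text says that rats were assigned to the groups at random, but no label ties a library to an animal, so the p-values below measure the spread between these libraries.

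The values were FPKM, in which the fragments of a gene are divided by the length of its transcript and by the library's total, so genes of different length can be set side by side. The FPKM steps of low genes returned whole fragment counts for 12727 of 12744 tested genes (99.9%, within 0.05 of a whole number), with totals of 14518402 to 17722995 fragments per library. Markers of CA1, CA3 and dentate neurons were all above 0 FPKM in at least 1 library, 5 of 5, 5 of 5 and 6 of 6. Among them Iyd (CA3) reached at most 0.189 FPKM and Tdo2 (dentate) at most 0.0995 FPKM, and both were at 0 in several libraries. The summed level of 9 striatal markers was 733 FPKM in control replicate 2, against 63.0 to 129 FPKM in the other 13 libraries. The summed level of 10 thalamic markers was also highest there, at 98.9 FPKM against 31.4 to 44.1. Prkcd gave 43.1 FPKM of it (at most 13.7 elsewhere). Each listed thalamic marker was highest in that library except Slc17a6, Ntng1 and Tnnt1. The summed level of 4 pituitary markers was 684 FPKM in PTZ+Q808 replicate 3 and at most 11.5 FPKM elsewhere. PTZ replicate 1 held the nicotinic receptor genes Chrnb4 at 13.0 FPKM (at most 0.942 elsewhere) and Chrna3 at 5.47 FPKM (at most 2.11 elsewhere), with the highest sum of 7 meningeal markers, 306 FPKM against 67.7 to 253. Choroid plexus markers summed to 58.2 to 7321 FPKM, with low and high libraries in every group, and of 8 listed markers Otx2 was listed at 0 in all libraries. Main results are also given without control replicate 2, PTZ replicate 1 or PTZ+Q808 replicate 3 where these bear on them.

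Hcn2 (gene identifier 114244), the channel gene with the highest level of the 3, had a mean of 43.7 FPKM over the 14 libraries and stood at the 85.8th percentile of tested genes. Hcn3 (114245) had a mean of 6.56 FPKM and stood at the 39.1st percentile. Hcn4 (59266), the main pacemaker isoform of the sinoatrial node, had a mean of 0.942 FPKM and stood at the 1.5th percentile. Pex5l (286937) had a mean of 45.8 FPKM, at the 86.4th percentile.

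The order of the channel genes was the same in 14 of 14 libraries. On the FPKM scale Hcn2 was 4.78 to 11.97 times Hcn3 (median 6.55), and Hcn3 was 4.00 to 11.02 times Hcn4 (median 7.77). The ranges of these 3 genes did not touch, whatever the treatment. Hcn2 and Pex5l were neighbours in the order and their ranges overlapped: Pex5l was above Hcn2 in 9 of 14 libraries, of which 1 of 4 was control, 5 of 5 were PTZ and 3 of 5 were PTZ+Q808.

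Hcn2 measured 44.6, 60.4, 45.5 and 44.0 FPKM in control replicates 1 to 4. It measured 47.3, 41.3, 48.0, 37.6 and 40.2 FPKM in PTZ replicates 1 to 5, and 40.9, 36.2, 38.4, 44.2 and 43.8 FPKM in PTZ+Q808 replicates 1 to 5. Control replicate 2 stood alone at the top, and the other 3 controls lay inside the PTZ range. Of the PTZ+Q808 libraries, 4 of 5 were below every control, and replicate 4 lay just above the lowest control.

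Control libraries averaged 48.6 ± 7.88 FPKM of Hcn2 (SD, n = 4), PTZ libraries 42.9 ± 4.59 (n = 5) and PTZ+Q808 libraries 40.7 ± 3.45 (n = 5). Without control replicate 2 the control mean was 44.7 ± 0.754 FPKM (n = 3). The coefficient of variation between libraries was 16.2%, 10.7% and 8.48% in control, PTZ and PTZ+Q808. In whole tissue, fewer cells that express a gene and less RNA per cell cannot be told apart.

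Hcn3 measured 6.09, 5.05, 8.06 and 7.04 FPKM in the controls. Its values were 6.69, 6.93, 7.11, 6.70 and 4.80 FPKM in PTZ and 6.78, 5.40, 8.03, 6.32 and 6.85 FPKM in PTZ+Q808. PTZ replicate 5 was the lowest library of all and control replicate 3 the highest, and the 3 groups covered nearly the same range. Means were 6.56 ± 1.29 FPKM (SD, n = 4), 6.45 ± 0.937 (n = 5) and 6.68 ± 0.952 (n = 5) in control, PTZ and PTZ+Q808.

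Hcn4 measured 0.638, 1.26, 0.965 and 1.07 FPKM in the controls, 0.811, 0.629, 0.962, 0.955 and 0.518 FPKM in PTZ, and 0.832, 0.578, 1.94, 0.935 and 1.10 FPKM in PTZ+Q808. It reached 1 FPKM in 4 libraries, the smallest number that allowed a test. These were control replicates 2 and 4 and PTZ+Q808 replicates 3 and 5, and no PTZ library reached it. Hcn4 thus entered the tests through control and PTZ+Q808 libraries only, among them those with striatal and pituitary transcripts. The values of Hcn4 in the 14 libraries rest on 34 to 136 fragments. PTZ+Q808 replicate 3, the library with pituitary transcripts, was the highest. Its 136 fragments give an exact Poisson interval of 1.62 to 2.29 FPKM, which lies above the values of the other 13 libraries and covers counting error only. The PTZ+Q808 mean was 1.08 ± 0.516 FPKM (SD, n = 5) with this library and 0.861 ± 0.218 (n = 4) without it, beside 0.984 ± 0.262 (n = 4) in control and 0.775 ± 0.198 (n = 5) in PTZ.

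Pex5l measured 35.4, 44.1, 36.5 and 50.4 FPKM in the controls. The PTZ values were 52.8, 55.4, 50.1, 39.4 and 46.1 FPKM, and the PTZ+Q808 values were 62.2, 29.8, 43.4, 54.7 and 41.6 FPKM. The PTZ+Q808 libraries held both the lowest and the highest value of the series, and the control and PTZ ranges overlapped. Control libraries averaged 41.6 ± 7.01 FPKM of Pex5l (SD, n = 4), PTZ libraries 48.8 ± 6.27 (n = 5) and PTZ+Q808 libraries 46.3 ± 12.5 (n = 5). Its within-group SD was 0.29 on the log2(FPKM + 1) scale, at the 89.3rd percentile of tested genes, whereas that of Hcn2 was 0.16, at the 62.5th percentile.

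**Figure D1:**
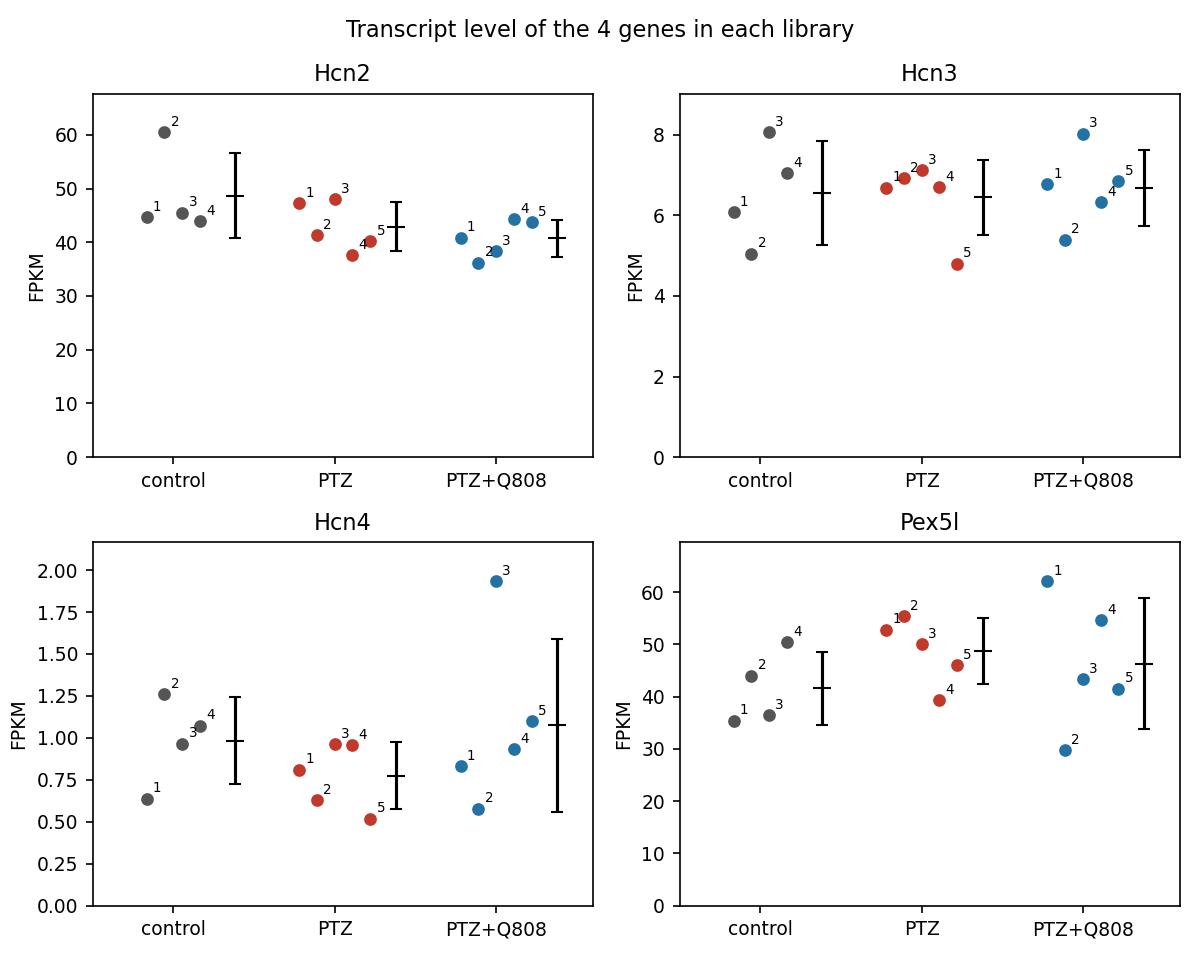
FPKM (vertical axes, from 0) of Hcn2, Hcn3, Hcn4 and Pex5l in each library, by group; numbers beside points are replicates, and bars beside each group are the mean and SD. Hcn2 is highest in control replicate 2 (60.4 FPKM), Hcn4 in PTZ+Q808 replicate 3 (1.94 FPKM), and the groups overlap in every panel.

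Seizure induction was examined by comparing PTZ with control. Differences between groups were tested with limma on log2(FPKM + 1), over genes with at least 1 FPKM in at least 4 libraries, with all 3 groups in 1 fit. The threshold for a call was 0.05 on p-values adjusted by the Benjamini-Hochberg method across 12744 genes. Differences are given on this scale, which understates the change of genes with low FPKM, Hcn4 above all.

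None of the 4 genes was called between PTZ and control (0 of 4 with limma, 0 of 4 at an unadjusted p under 0.05, and 0 of 4 with voom on the recovered counts). Over all genes 0.0314% were called and 8.11% had an unadjusted p under 0.05. The groups overlapped for all 4 genes, and they did not overlap for 3.03% of all genes. The members' count thus did not stand apart from the share over all genes.

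The difference of Hcn2 between PTZ and control was -0.17 ± 0.101 (SE), with a 95% interval of -0.39 to 0.04 (adjusted p = 0.689, limma; exact permutation p = 0.190, n = 5 and 4). Without control replicate 2 it was -0.06 (exact permutation p = 0.482). Pex5l had the opposite sign, 0.23 ± 0.176 with an interval of -0.15 to 0.61 (adjusted p = 0.748; exact permutation p = 0.151). For Hcn3 the interval was -0.29 to 0.26 (adjusted p = 0.985) and for Hcn4 it was -0.50 to 0.18 (adjusted p = 0.815). Changes within those intervals are compatible with these libraries. Without PTZ replicate 1 the differences of Hcn2, Hcn3, Hcn4 and Pex5l were -0.21, -0.03, -0.17 and 0.20 (adjusted p of 0.591 to 0.966, limma).

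Treatment with Q808 in the seizure model was examined by comparing PTZ+Q808 with PTZ. Again 0 of 4 genes were called with limma, 0 of 4 had an unadjusted p under 0.05 and 0 of 4 were called with voom. Over all genes 0% were called in this comparison, where 6.14% (783 genes) had an unadjusted p under 0.05 and voom also called 0. The 2 groups overlapped for all 4 genes, and did not for 0.777% of all genes.

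Between PTZ+Q808 and PTZ the difference of Hcn2 was -0.07 ± 0.0948 (SE), with a 95% interval of -0.27 to 0.13 (adjusted p = 0.936, limma). Pex5l differed by -0.11 ± 0.166, with an interval of -0.46 to 0.25 (adjusted p = 0.950). Hcn3 differed by 0.05 (interval -0.22 to 0.31, adjusted p = 0.969). Hcn4 differed by 0.20 (interval -0.12 to 0.52, adjusted p = 0.870; exact permutation p = 0.278), and by 0.07 without PTZ+Q808 replicate 3 (exact permutation p = 0.571). Without PTZ replicate 1 the differences of Hcn2, Hcn3, Hcn4 and Pex5l were -0.04, 0.06, 0.21 and -0.07 (adjusted p of 0.979 to 0.991, limma).

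The third comparison, PTZ+Q808 with control, spans the convulsant and the compound together, and it shares its groups with the others. Over all genes 2.87% were called (366 genes; 1.94% higher, 0.934% lower) and 20.7% had an unadjusted p under 0.05. The number of called genes ran from 17 without control replicate 1 to 673 without PTZ+Q808 replicate 4. Of the 4 genes 0 were called by limma and 0 by voom, and 1, Hcn2, had an unadjusted p under 0.05. All 4 genes overlapped between the groups, whereas 8.91% of all genes did not.

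Hcn2 was lower in PTZ+Q808 than in control by 0.24 on the log2(FPKM + 1) scale (difference -0.24 ± 0.101 SE, 95% interval -0.46 to -0.03). Its unadjusted p was 0.0298 and its adjusted p 0.191 (limma), and the exact permutation p over 126 arrangements of 5 and 4 libraries was 0.0317, unadjusted and 1 of 12 such tests. Without control replicate 2, in which striatal markers stood at 733 FPKM, the difference was -0.14 (adjusted p = 0.412, exact permutation p = 0.125). The part of the striatal transcripts in this difference was not tested further. Intervals for the other genes spanned 0: -0.25 to 0.31 for Hcn3 (adjusted p = 0.927), -0.30 to 0.38 for Hcn4 (adjusted p = 0.910) and -0.25 to 0.50 for Pex5l (adjusted p = 0.743).

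**Figure D2:**
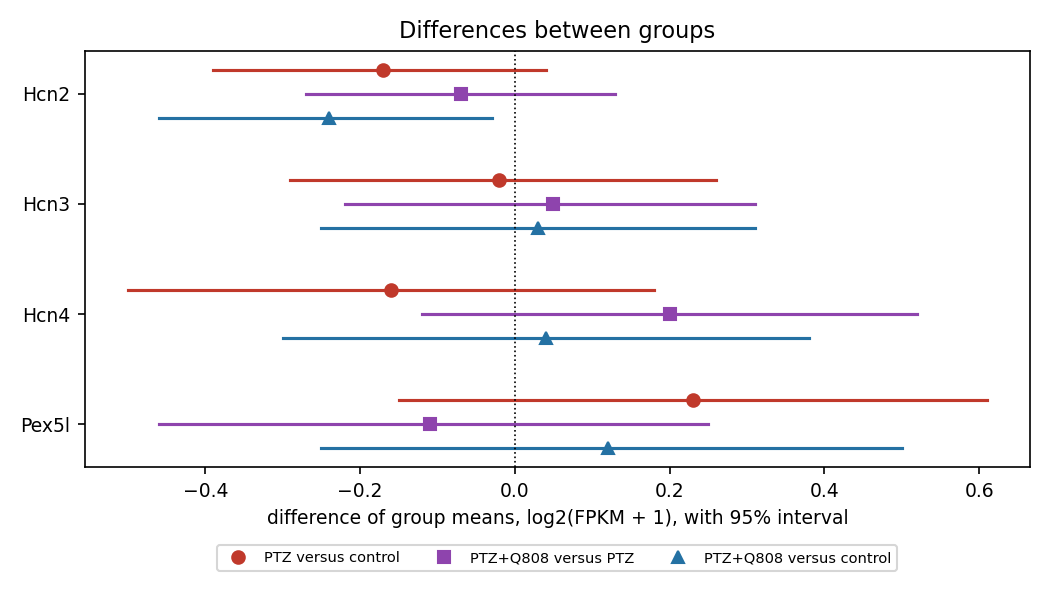
Differences of group means on the log2(FPKM + 1) scale (horizontal axis) for the 4 genes in the 3 comparisons; symbols are estimates and lines are 95% intervals from limma. The interval of Hcn2 in PTZ+Q808 versus control, -0.46 to -0.03, is the one that does not reach 0, and its adjusted p is 0.191.

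The balance between the auxiliary subunit and a channel was followed as the ratio of Pex5l to Hcn2 within each library. In FPKM the ratio was 0.793, 0.729, 0.802 and 1.15 in the controls and 1.116, 1.34, 1.04, 1.05 and 1.15 in PTZ. It was 1.52, 0.822, 1.13, 1.24 and 0.949 in PTZ+Q808. Of the controls 3 were below every PTZ library, while control replicate 4 lay among them, and PTZ+Q808 reached from near the low controls to the highest value of all.

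The log2 ratio of Pex5l to Hcn2 was 0.18 ± 0.147 (SD, n = 5) in PTZ and -0.23 ± 0.289 (n = 4) in control, a difference of 0.41. The exact permutation p was 0.0397, and it was 0.357 after adjustment over the 9 ratio tests, so the difference did not pass. Control replicate 2, the library with striatal transcripts, had the lowest ratio, 0.729. Without it the difference was 0.33 between PTZ and control (adjusted exact permutation p = 0.696) and 0.30 between PTZ+Q808 and control (adjusted 0.696). With 126 or 252 arrangements of libraries, a single ratio could not pass this adjustment on its own, even with groups fully apart. Not passing therefore says little about the ratio of Pex5l to Hcn2. Between PTZ+Q808 and PTZ this log2 ratio differed by -0.04 (exact permutation p adjusted over 9 tests = 0.825), and between PTZ+Q808 and control by 0.37 (adjusted 0.571). The log2 ratios of Hcn3 to Hcn2 differed by 0.16, 0.13 and 0.28 in the 3 comparisons, and those of Hcn4 to Hcn2 by -0.17, 0.47 and 0.30. Their exact permutation p was between 0.571 and 0.670 after adjustment. Without control replicate 2 the log2 ratio of Hcn3 to Hcn2 differed by -0.07 in PTZ versus control and 0.06 in PTZ+Q808 versus control. Without PTZ+Q808 replicate 3 that of Hcn4 to Hcn2 differed by 0.21 in PTZ+Q808 versus PTZ and 0.04 in PTZ+Q808 versus control.

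**Figure D3:**
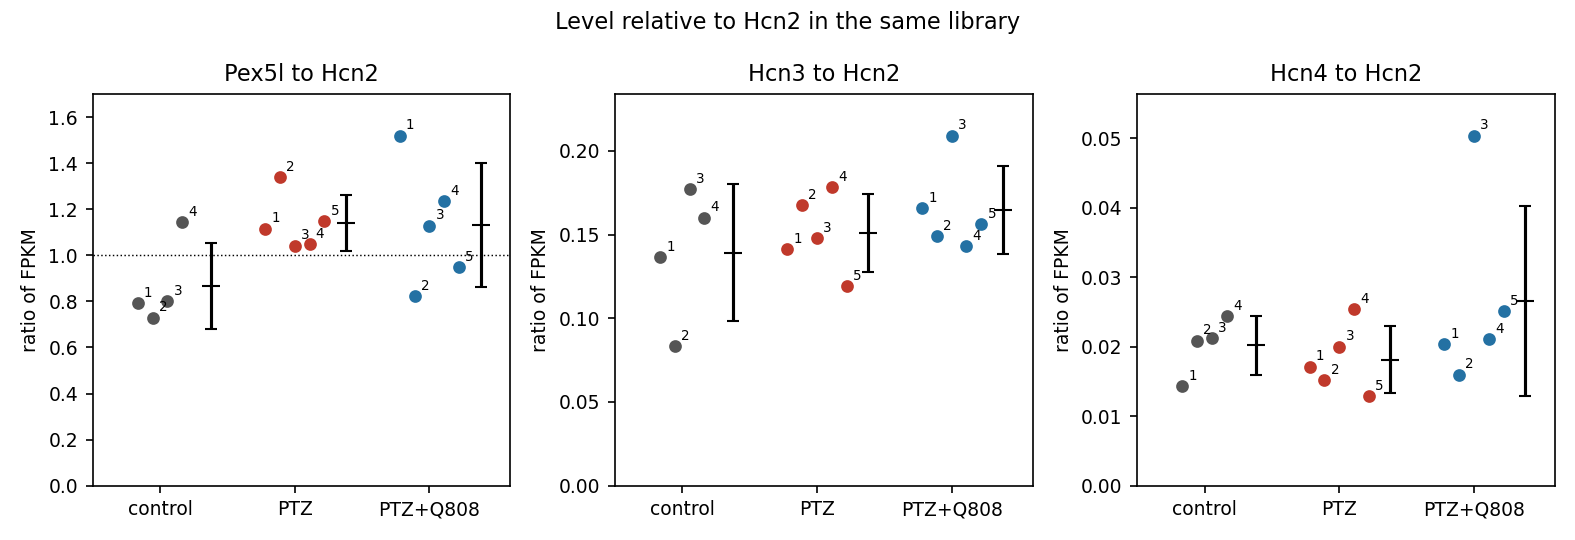
Ratio of the FPKM of Pex5l, Hcn3 and Hcn4 to that of Hcn2 in each library (vertical axes, from 0), by group; numbers are replicates, bars are mean and SD, and the dotted line marks equal FPKM. In the Pex5l panel 3 controls, at 0.729 to 0.802, lie below the PTZ libraries, and control replicate 4 is at 1.15.

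Shared variation of the 4 genes was examined across the 14 libraries. Of 6 pairs, 0 passed after adjustment by Pearson's r and 0 by Spearman's rho. The pair of highest r was Hcn3 and Hcn4 (r = 0.503, permutation p = 0.0684, adjusted 0.410; rho = 0.525, permutation p = 0.0559, adjusted 0.336), with r = 0.711 without the 2 libraries farthest from the median of Hcn3. Hcn2 and Pex5l had r = 0.215 (adjusted permutation p = 0.686) and rho = 0.187 (adjusted 0.784), and r = 0.0676 without the 2 farthest libraries. Leaving out control replicate 2 and PTZ+Q808 replicate 3 raised r in all 6 pairs, with no test made: it was 0.744 for Hcn3 and Hcn4, 0.523 for Hcn2 and Hcn3 (-0.164 with all libraries), 0.442 for Hcn2 and Hcn4 (0.213), 0.361 for Hcn2 and Pex5l, 0.230 for Hcn3 and Pex5l (0.179), and 0.207 for Hcn4 and Pex5l (0.0734). The r values thus changed when these 2 libraries were left out. The part of their striatal and pituitary transcripts in this change was not tested.

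The genes most alike in pattern were taken as the 3 of highest Pearson's r with each gene over the 14 libraries, out of 11994 genes, and these r values are a description. For Hcn2 they were Adarb1, an RNA-editing deaminase (r = 0.902, rho = 0.741), Gga1, a clathrin adaptor (r = 0.887), and Zfp366, a zinc-finger protein (r = 0.879). All 3 were highest in control replicate 2 and lowest in PTZ+Q808 replicate 2, and without the 2 farthest libraries their r was 0.661, 0.716 and 0.805. Adarb1 ran from 22.7 to 45.1 FPKM.

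Hcn3 was most like Pak6, a p21-activated kinase (r = 0.914, 17.2 to 27.5 FPKM), Sgsm1, a small G protein modulator (r = 0.895, 20.2 to 30.8 FPKM), and Tmem145 (r = 0.888, 6.52 to 14.4 FPKM). Their r stayed between 0.820 and 0.861 without the 2 farthest libraries. Hcn4 was most like Tpd52l1 (r = 0.880), Igsf1, an immunoglobulin-superfamily membrane protein (r = 0.875, 13.6 to 32.5 FPKM), and Prkg2, a cGMP-dependent kinase (r = 0.873). Prkg2 ran from 1.01 to 2.59 FPKM and was highest in PTZ+Q808 replicate 3, like Hcn4.

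The genes most like Pex5l were Dzank1, Chd9, a chromatin remodeler, and Ralgapa2, a Ral GTPase-activating subunit, with r of 0.939, 0.936 and 0.933. Dzank1 ran from 9.40 FPKM in PTZ+Q808 replicate 2 to 17.3 FPKM in PTZ+Q808 replicate 1, the libraries in which Pex5l was also lowest and highest. Without the 2 farthest libraries their r was 0.928, 0.927 and 0.856.

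The 4 genes were also set beside summed levels of 15 marker lists of cell types and neighbouring tissues, 60 relations computed after the values had been seen. Of these, 1 passed by Pearson's r and 0 by rho: Hcn3 against 8 oligodendrocyte markers (r = -0.837, permutation p = 0.00016, adjusted 0.0096; rho = -0.767, permutation p = 0.0019, adjusted 0.114). It was -0.832 without the 2 farthest libraries, -0.735 without control replicate 2 and PTZ+Q808 replicate 3, and -0.901 over deviations from group means. All 8 markers were detected, and their sum ran from 3740 to 7389 FPKM in control, 3899 to 5823 in PTZ and 2739 to 5232 in PTZ+Q808. Libraries with more of these myelin-cell transcripts had less Hcn3, also when each library was set against its group mean. The part of the cell makeup of the samples in the values of Hcn3 was not tested further. Hcn4 also had a negative r with these markers, which did not pass (r = -0.502, permutation p = 0.0671, adjusted 0.406; rho = -0.512, adjusted 0.781). It was -0.848 without the 2 farthest libraries and -0.738 without control replicate 2 and PTZ+Q808 replicate 3, and the difference between Hcn3 and Hcn4 in this relation was not tested. For Hcn2 and Pex5l r was 0.457 and -0.250.

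Hcn2 and striatal markers had r = 0.699 (adjusted permutation p = 0.406), rho = 0.240 and r = 0.240 without the 2 farthest libraries. Hcn2 and thalamic markers had r = 0.625, rho = 0.0681 and r = -0.0315 without them. Hcn4 and pituitary markers had r = 0.602 and rho = -0.147. Without the 2 farthest libraries the last of these was -0.372, so none of these 3 relations kept its size without its 2 farthest libraries. Hcn4 and striatal markers did not pass either (r = 0.517, adjusted permutation p = 0.406; rho = 0.714, permutation p = 0.00542, adjusted 0.163), and their r was 0.692 without control replicate 2 and PTZ+Q808 replicate 3.

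**Figure D4:**
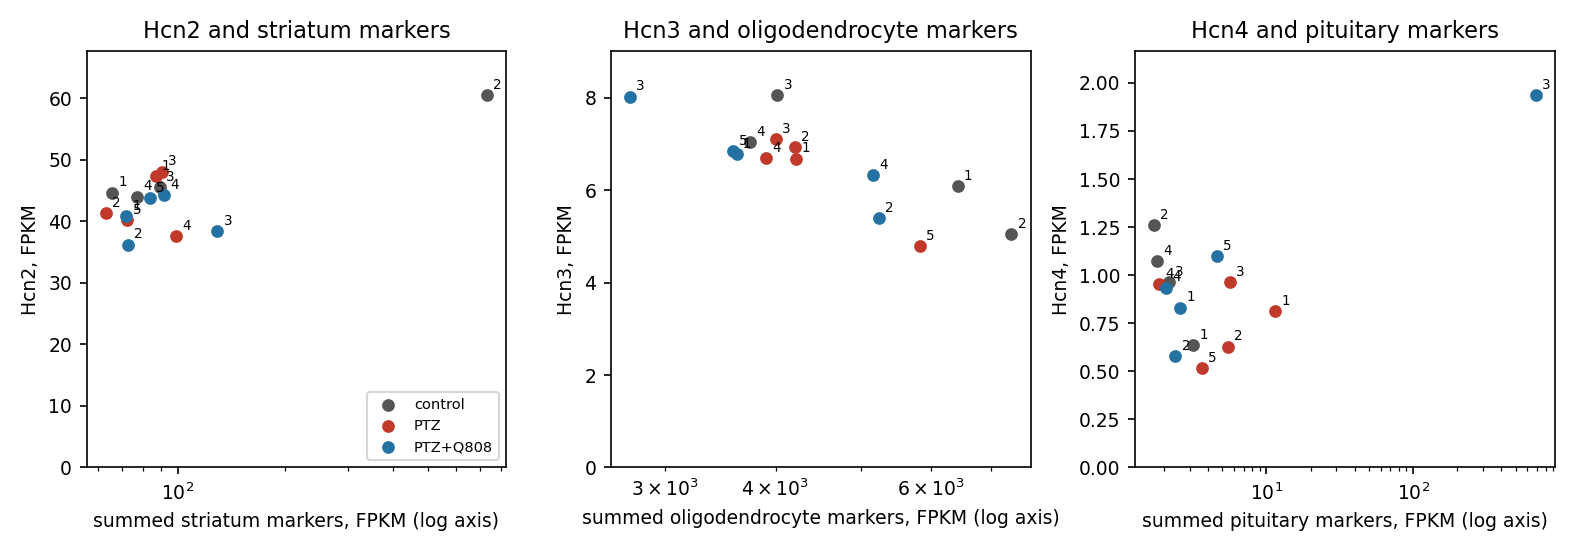
FPKM of Hcn2, Hcn3 and Hcn4 (vertical axes, from 0) against the summed FPKM of striatal, oligodendrocyte and pituitary markers (horizontal log axes) in 14 libraries, coloured by group and numbered by replicate. Control replicate 2 stands apart at 733 FPKM of striatal markers and PTZ+Q808 replicate 3 at 684 FPKM of pituitary markers, while Hcn3 is lower where oligodendrocyte markers are higher (r = -0.837).

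Partners of the channels and enzymes that set their ligand were read from 4 lists with 75 genes, of which 63 were tested. In PTZ versus control 0 of 63 were called, and in PTZ+Q808 versus PTZ 0 of 63. In PTZ+Q808 versus control 2 of 63 were called (3.17%, beside 2.87% of all genes), which is near the background.

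The HCN partner list (19 genes, 17 tested) holds trafficking, scaffold and kinase genes such as Kctd3, Magi2, Nedd4l and Camk2a. Its called gene was Mapk14, the p38 alpha kinase, which has been described as a modulator of Ih. Mapk14 measured 24.6, 23.5, 23.7 and 24.4 FPKM in the controls, 23.3, 20.8, 20.7, 19.5 and 21.2 in PTZ, and 18.4, 19.9, 18.6, 22.1 and 19.6 in PTZ+Q808. Every library of both PTZ groups was below every control. Over all genes, 3.03% did not overlap between PTZ and control, and 8.91% between PTZ+Q808 and control. Mapk14 fell in PTZ+Q808 versus control (-0.28 ± 0.0601 SE, adjusted p = 0.0316, limma), and the difference was -0.18 in PTZ versus control (adjusted p = 0.482) and -0.09 in PTZ+Q808 versus PTZ (adjusted p = 0.838). Adjusted p was 0.0760 without PTZ+Q808 replicate 3 and 0.0442 without control replicate 2, and it was 0.0722 to 0.0951 without control replicate 1, 3 or 4 or PTZ+Q808 replicate 1 or 5. In a fit of only those 2 groups the difference was again -0.28, with an adjusted p of 0.0544.

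The median difference of the 17 tested partner genes was -0.01, -0.01 and -0.03 in the 3 comparisons, with 8, 7 and 8 of 17 positive, beside medians of -0.0102, -0.0044 and -0.0202 over all genes. Pex5, the peroxisomal import receptor that Pex5l resembles, averaged 4.03 ± 1.57 FPKM with PTZ (SD, n = 5) and 2.78 ± 0.559 in the controls (n = 4) (adjusted p = 0.671, limma). Magi2, a synaptic scaffold, was at 14.2 ± 2.43 FPKM (n = 5) in PTZ+Q808 and 16.4 ± 1.20 (n = 5) in PTZ (adjusted p = 0.801, limma).

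Adenylyl cyclases, which make cyclic AMP, and the phosphodiesterases that break it down formed a list of 24 genes, of which 21 were tested. Pde1a, a calcium- and calmodulin-dependent phosphodiesterase, was called in PTZ+Q808 versus control. It measured 35.8, 28.6, 38.8 and 35.7 FPKM in the controls, 41.9, 49.95, 44.4, 46.8 and 45.3 in PTZ, and 54.8, 39.7, 48.8, 57.2 and 47.8 in PTZ+Q808. All libraries of both PTZ groups were above all controls. Groups did not overlap for 3.03% of all genes between PTZ and control, and for 8.91% between PTZ+Q808 and control. Pde1a rose by 0.50 ± 0.102 (SE) in PTZ+Q808 versus control (adjusted p = 0.0265, limma). The difference was 0.39 in PTZ versus control, which did not pass (adjusted p = 0.342). Its adjusted p was 0.0463 without control replicate 2 and 0.0573 without PTZ+Q808 replicate 3, and it was 0.0508 to 0.0751 without control replicate 1, 3 or 4 or PTZ+Q808 replicate 1 or 5. In a fit of only those 2 groups the difference was 0.50, with an adjusted p of 0.0608.

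The medians of the 21 tested cyclase and phosphodiesterase genes were 0.02, -0.04 and -0.02, with 11, 9 and 9 positive. Genes of this list that striatal neurons express strongly were high in control replicate 2. Adcy5 was at 48.9 FPKM there and at 10.6 to 17.4 in the other libraries, and Pde10a was at 46.8 FPKM against 7.42 to 14.6. Pde4d averaged 6.77 ± 1.05 FPKM with PTZ (SD, n = 5) and 5.41 ± 0.497 in the controls (n = 4) (adjusted p = 0.594, limma). Adcy9, an adenylyl cyclase, was at 20.1 ± 1.63 FPKM (n = 5) in PTZ+Q808 and 22.8 ± 1.14 (n = 5) in PTZ (adjusted p = 0.760, limma).

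Channels that share the HCN family's cyclic nucleotide-binding fold, the Cng and Kcnh genes, made a list of 14, of which 7, all of them Kcnh genes, were tested and 0 were called in any comparison. Kcnh7, an Erg-type potassium channel, averaged 5.20 ± 0.508 FPKM with PTZ (SD, n = 5) and 3.39 ± 0.524 in the controls (n = 4). The difference was 0.50 ± 0.126 (SE, adjusted p = 0.335, limma). These groups did not overlap, as for 3.03% of all genes. In PTZ+Q808 Kcnh7 was at 4.68 ± 1.03 FPKM. Between PTZ+Q808 and PTZ the values were negative for 7 of 7 genes with a median of -0.13, where 48.3% of all genes were positive, and Kcnh1 had -0.22 (adjusted p = 0.838). PTZ+Q808 replicate 2 was the lowest PTZ+Q808 library for each of the 7 genes, for example 7.34 FPKM for Kcnh1 and 3.38 FPKM for Kcnh7, and without it 6 of 7 were negative with a median of -0.04. The median was -0.03, with 6 of 7 negative, without PTZ replicate 3. Kcnh6 was at 4.10 FPKM in PTZ replicate 1 and 0.918 to 1.10 FPKM in the other PTZ libraries, and without PTZ replicate 1 the count was 6 of 7 and the median -0.13. In PTZ versus control the median of the 7 was 0.11 with 5 positive (0.05 with 4 positive without PTZ replicate 3 or without control replicate 2), and these comparisons share the PTZ libraries.

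Other channels that act near rest, T-type calcium, leak and two-pore potassium, M-type and inward rectifier channels, made a list of 18, all tested, with 0 called in any comparison. Their medians were 0.08, -0.07 and 0.01, with 12, 6 and 10 positive, beside -0.0102, -0.0044 and -0.0202 over all genes. The first 2 comparisons share the PTZ libraries. In PTZ+Q808 versus PTZ the median was 0.0, with 9 of 18 positive, without PTZ+Q808 replicate 2. It was -0.12, with 5 positive, without PTZ+Q808 replicate 4. Nalcn, the sodium leak channel, averaged 21.4 ± 0.439 FPKM in the controls (SD, n = 4), 23.8 ± 2.19 with PTZ (n = 5) and 24.9 ± 1.66 with PTZ+Q808 (n = 5). Every PTZ+Q808 library of Nalcn was above every control, with an adjusted p of 0.0990 (limma). These groups did not overlap for 8.91% of all genes. Cacna1h, a T-type calcium channel, was at 14.3 ± 1.11 FPKM (n = 4) in control and 11.99 ± 1.29 (n = 5) in PTZ+Q808 (adjusted p = 0.140, limma).

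**Figure D5:**
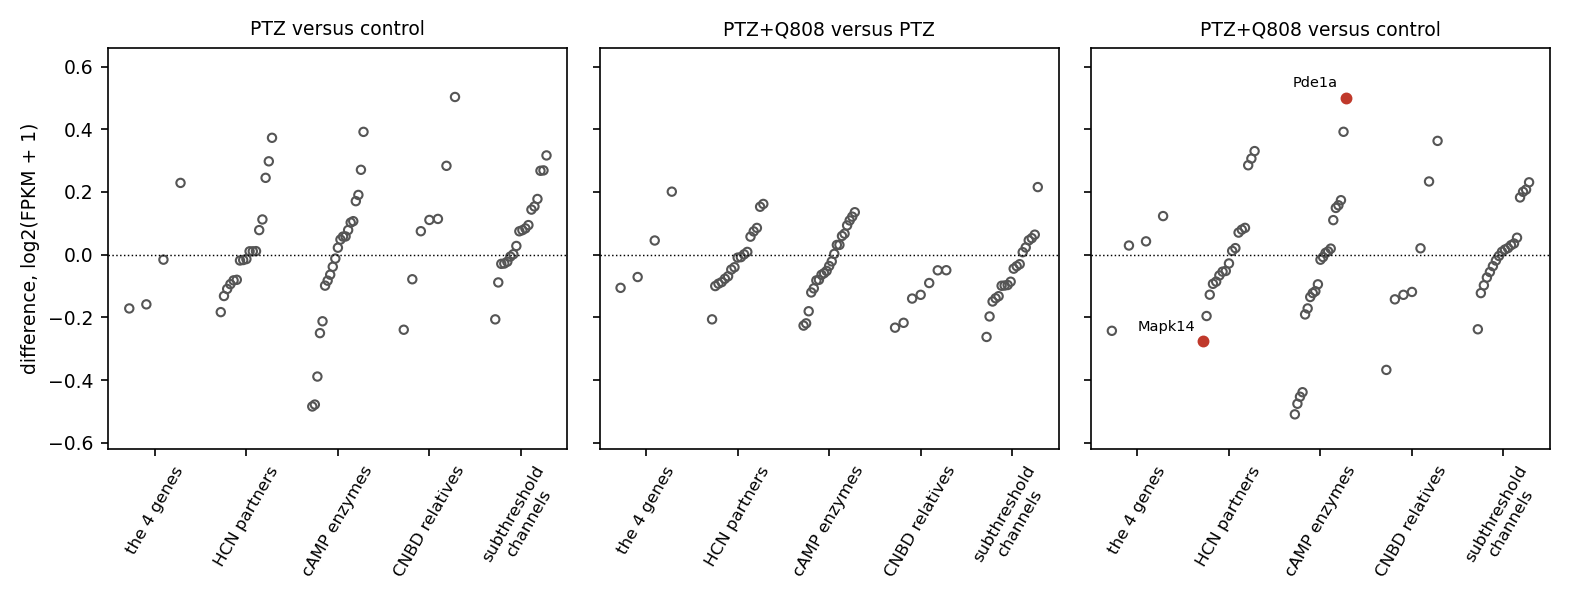
Differences of group means on the log2(FPKM + 1) scale (vertical axis) for the 4 genes and for the tested members of 4 lists, 1 panel per comparison; open points did not pass and filled points had an adjusted p under 0.05. The filled points are Mapk14 (-0.28) and Pde1a (0.50), both in PTZ+Q808 versus control.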

How the data were processed

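Rat hippocampal RNA for 14 libraries was captured on mRNA beads and read on a BGI T7 sequencer, according to the labels' protocols. The authors deposited FPKM values per gene and library. The submitters' processing notes name HISAT2 and Bowtie2, StringTie and Cufflinks, HTSeq and DESeq, and Trimmomatic and SAMtools, with neither role nor version, and the genome build was not given in the sources used here. No coordinates are therefore printed. Gene identifiers replaced 12 symbols that appear as dates in the files. The sum of FPKM was 383126 to 419358 per library.

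From these values log2(FPKM + 1) was computed with no further scaling. Genes with at least 1 FPKM in at least 4 libraries were fitted in limma 3.58.1 (R 4.3.3), with a mean-dependent prior, 3 groups and 11 residual degrees of freedom. All tests were two-sided. Exact permutation tests enumerated 126 or 252 arrangements of libraries. Correlations used 100000 permutations in scipy 1.17.1. Whole counts were recovered from the steps of the FPKM values, and the largest deviation of a member from a whole count was 0.0021. The scripts were tested on simulated data.

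Named genes were the 4 members, called list genes (at most 6 per list and comparison, or 2 of smallest p where none was called), the 3 most alike genes per member, and markers where a list moved with a member. Adcy5, Pde10a, Kcnh6, Kctd3, Nedd4l and Camk2a were named after their values were seen. Members and lists were chosen with earlier results of these data known. Alternatives were a pseudocount of 0.1, no filter, a minimum of 5 FPKM, other scalings, a fit of only 2 groups, a robust prior, a replicate block and leaving out each library. Voom on the recovered counts and leaving out control replicate 2 with PTZ+Q808 replicate 3 were added after seeing the data.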

Additional observations from a re-analysis of the deposited data

Results flagged for a closer look

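Of 21 groups of values examined, counting the 4 genes and the 3 ratios to Hcn2 in each of 3 groups, 3 held a library far from the others by Dixon's criterion, which chance meets in about 1 group in 20. Hcn2 in control replicate 2, at 60.4 FPKM, was separated from the next control (45.5 FPKM) by 0.909 of the group's range, above the critical value of 0.829. This was the library with 733 FPKM of striatal markers.

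Hcn3 in PTZ replicate 5, at 4.80 FPKM, was separated from the next PTZ library (6.69 FPKM) by 0.816 of the range, above the critical value of 0.710. PTZ replicate 5 had 5823 FPKM of oligodendrocyte markers, the highest sum in its group, against 3899 to 4214 in the other PTZ libraries. The ratio of Hcn4 to Hcn2 in PTZ+Q808 replicate 3, at 0.0504, was separated from the next library (0.0251) by 0.735 of the range, with a critical value of 0.710. This was the library with 684 FPKM of pituitary markers. The part of these markers in the member values was not tested beyond the values without those libraries.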

How the results depend on the processing

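Over 285 values of the 12 member differences under the alternatives, 0 passed the threshold (smallest adjusted p = 0.152, limma) and 14 turned sign. Over 102 values of the 9 ratio differences, 0 passed (smallest adjusted exact permutation p = 0.161) and 6 turned sign. With so few arrangements of libraries, a single ratio could not pass on its own after adjustment, even with groups fully apart. The count of 0 therefore says little about the ratios. Hcn4 has no value at a minimum of 5 FPKM. Hcn2 stayed negative under every alternative run, and its difference between PTZ+Q808 and control was -0.29 to -0.14 when 1 library at a time was left out. For the values below that turned sign, the cause was not tested. With the replicate number as a block, the difference of Hcn3 in PTZ versus control was 0.02. Same-numbered libraries did not deviate together (13 pairs, r of -0.28 to 0.143, median -0.00136), so the numbers were not taken to pair them. With control replicate 2 and PTZ+Q808 replicate 3 both left out, Hcn3 differed by -0.02 in PTZ+Q808 versus PTZ and by -0.13 in PTZ+Q808 versus control, Hcn4 by -0.02 in PTZ+Q808 versus control, and the log2 ratio of Hcn3 to Hcn2 by -0.07 in PTZ versus control and -0.03 in PTZ+Q808 versus control.

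Leaving out 1 library at a time gave Hcn3 differences of -0.12 to 0.08 in PTZ versus control, -0.04 to 0.11 in PTZ+Q808 versus PTZ and -0.07 to 0.12 in PTZ+Q808 versus control. It gave Hcn4 -0.09 to 0.13 in PTZ+Q808 versus control and Pex5l -0.22 to 0.04 in PTZ+Q808 versus PTZ. The log2 ratio of Hcn3 to Hcn2 ran from -0.07 to 0.29 in PTZ versus control, and that of Pex5l to Hcn2 from -0.15 to 0.07 in PTZ+Q808 versus PTZ.

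Counts of called genes over the whole table depended on the settings. In PTZ versus control 4 genes were called, 1 without the filter, 0 in a fit of only those groups, 0 with the block, 1 with voom, and 1 to 5 without 1 library (1 when the library left out was control 1, 3 or 4 or PTZ 3 or 4, and 2 when it was PTZ 5 or PTZ+Q808 3). In PTZ+Q808 versus PTZ 0 were called, 2 without the filter, and 0 without any 1 library. In PTZ+Q808 versus control 366 were called, 190 without the filter, 199 in a fit of only those groups, 4 with the block, 57 without control replicate 2 and PTZ+Q808 replicate 3, and 17 to 673 without 1 library. The count was 17, 40 and 54 without control replicate 1, 3 and 4, and 32, 72, 673 and 38 without PTZ+Q808 replicate 1, 3, 4 and 5. Why these counts differ was not tested. Mapk14 and Pde1a were not called with the block (adjusted p = 0.0997 and 0.0705), in a fit of only those groups (0.0544 and 0.0608), or without control replicate 1, 3 or 4 or PTZ+Q808 replicate 1, 3 or 5. Depth limited Hcn4 most, at 34 to 136 fragments.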

Other observations

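Kcne2, a small accessory subunit listed among the HCN partners and abundant in choroid plexus, ran from 0.526 FPKM in control replicate 3 to 14.6 FPKM in PTZ+Q808 replicate 4. Cngb1 and Cnga1, subunits of the rod cyclic nucleotide-gated channel, were at 3.79 and 0.526 FPKM in PTZ replicate 1 and at most 0.137 and 0.106 FPKM in the other 13 libraries. These genes were chosen after their values were seen, and neither Cng gene passed the filter on low values.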
